A study of Mus musculus with 11 samples.

Results

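*Akna* (ENSMUSG00000039158) is 1 of the 55536 genes with a row in the files, and its level is described here in all 11 libraries of sorted epidermal cells. It was chosen because tdT+ and tdTneg CD49f+CD34+ cells differed in it, so the values of that comparison are a description and no test is given for them. RNA was sequenced from dorsal skin cells of male *CD4Cre R26-tdT* mice on the C57Bl6/N background. All groups carried both alleles, and each library pooled the cells of 2 mice, of 29 weeks in replicate 1 and of 32 weeks in replicates 2 and 3. The groups were tdT+CD49f+CD34+ (3 libraries), tdTneg CD49f+CD34+ (3 libraries), tdT+CD49f+CD34+SCA-1+ (3 libraries) and tdTneg CD49f+CD34+SCA-1+ cells (2 libraries), and the CD49f+CD34+ cells were SCA-1neg. CD49f is integrin alpha 6, which marks basal keratinocytes, CD34 marks the hair follicle bulge, and the study compared cells with and without a history of *Cd4* expression. *CD4Cre* recombines the *R26-tdT* reporter wherever the *Cd4* promoter has been active, which in this mouse line includes T cells, and the methods name antibodies to CD49f, CD34 and SCA-1 for the sort and none to a leukocyte antigen. In sections of tail skin, the paper found epidermal tdT+ cells negative for the immune cell marker CD45, for Langerin and for MelanA. The sorted cells were not part of that staining.

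AKNA is an AT-hook protein that was described in B lymphocytes as a factor binding the promoters of *Cd40* and of its ligand. It was later found at the centrosome, where it organises microtubules, and it is known for its part in the delamination of neural progenitors and in epithelial-mesenchymal transition. Its transcript is best known from lymphoid cells.

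In the annotation used for the counts, *Akna* lies on chromosome 4, from 63367125 to 63403354 on the minus strand of GRCm38. The gene spans 36230 bases and has 2 annotated transcripts, 1 of them protein coding with 22 exons, and together their exons cover 5765 bases. The antisense gene *Aknaos* lies within it on the plus strand, and the exons of both share 6 bases. The strand setting of the counting is not given in the sources used here, and *Aknaos* had 11 counts over all 11 libraries.

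The bases before the start site are shown because *Akna* moved with leukocyte genes across the libraries, and capitals mark the ETS core AGGAAG and the RUNX core TGTGGT on either strand. The region chr4:63403446-63403695 (RefSeq, GRCm38.p6) holds the 250 bases before a RefSeq start that lies 91 bases upstream of the Ensembl start, and it is printed 5′ to 3′ on the minus strand.
Akna start region: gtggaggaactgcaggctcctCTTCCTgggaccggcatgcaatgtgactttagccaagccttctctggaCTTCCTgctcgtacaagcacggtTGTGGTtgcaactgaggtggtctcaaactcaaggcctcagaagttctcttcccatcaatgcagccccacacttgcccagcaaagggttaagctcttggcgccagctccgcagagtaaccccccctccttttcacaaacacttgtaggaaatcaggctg
The ETS core matched 2 times and the RUNX core 1 time, with no overlap between them. At least 1 match was held by 29.5% (ETS core) and 14.05% (RUNX core) of the 32851 RefSeq start regions of 250 bases. The E-box CANNTG matched 3 times and is held by 66.2% of these regions. The AP-1 site TGANTCA and the GATA site AGATAA had no match in this window, and 6.75% and 9.99% of regions hold one. A further RefSeq start region of *Akna*, chr4:63402604-63402853 on the minus strand, lies inside the Ensembl gene and is not printed. It had 1 match of the ETS core, 0 of the RUNX core, 1 of the E-box and 0 of the AP-1 and GATA sites. A match describes letters in a window and is not a bound site.

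The libraries held from 17409131 to 46542177 reads assigned to genes. Keratinocyte identity was present throughout, since the 12 keratinocyte genes of the marker list, *Krt5*, *Krt14* and *Trp63* among them, summed to between 23114 and 48567 normalized CPM in every library. Normalized CPM are counts scaled to a common library total (CPM) and by the TMM factor of edgeR. One library stood apart from its label. The row outside the Ensembl genes, which was between 133 and 307 CPM in 5 tdT+ libraries, was at 2.05 CPM in the library labelled tdT+ CD49f+CD34+ replicate 2, against 2.54 to 4.89 CPM in the tdTneg libraries. Values are therefore also given without it. In addition, 3 CD49f+CD34+ libraries stood apart from the rest of their groups, namely tdT+CD49f+CD34+ replicate 1, the library labelled replicate 2 of that group and tdTneg CD49f+CD34+ replicate 2. In these 3, *Fn1* (fibronectin) was at 895 to 1819 normalized CPM, against 29.5 to 34.9 in the 3 other CD49f+CD34+ libraries and 31.5 to 245 in CD49f+CD34+SCA-1+ cells. *Orm1*, an acute phase protein gene, was at 348 to 807 against 2.12 to 10.1, and *Csf1r*, the CSF1 receptor of myeloid cells, at 31.7 to 69.3 against 0.276 to 1.22 normalized CPM. These 3 genes were chosen after their values were seen. Where it is stated, results are also given without these 3 libraries. Without them 1 tdT+CD49f+CD34+ library is left, which is then assumed to vary like the other groups.

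*Akna* was lowest in tdTneg CD49f+CD34+ cells and highest in tdT+CD49f+CD34+SCA-1+ cells. In tdTneg CD49f+CD34+ cells the replicates 1 to 3 had 37, 45 and 33 counts, which are 0.765, 1.19 and 0.805 normalized CPM. The libraries labelled tdT+CD49f+CD34+ had 303, 211 and 123 counts, or 13.7, 11.3 and 6.78 normalized CPM, of which the second is the one with its reporter row at the tdTneg level. In the tdTneg CD49f+CD34+SCA-1+ libraries there were 384 and 402 counts, or 12.2 and 16.8 normalized CPM. The tdT+CD49f+CD34+SCA-1+ libraries had 1011, 635 and 770 counts, or 26.9, 36.1 and 39.7 normalized CPM. The highest and the lowest library thus differed by 52.0-fold, the 3 tdTneg CD49f+CD34+ libraries lay below all others and the 3 tdT+CD49f+CD34+SCA-1+ libraries above all others. In bulk RNA, a lower number of cells of one type and less RNA per cell cannot be told apart.

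**Figure D1:**
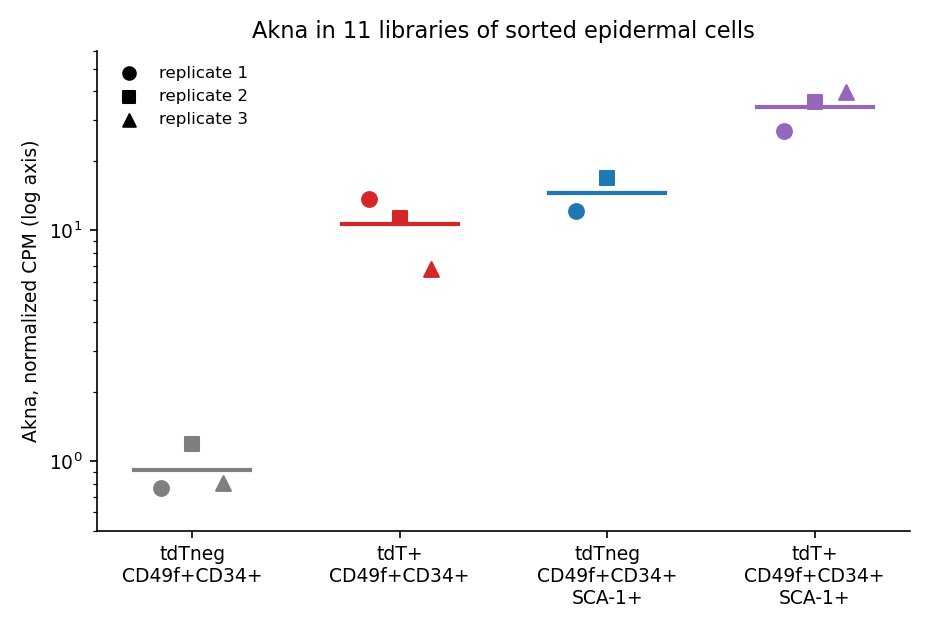
*Akna* in normalized CPM (log axis) in each of the 11 libraries, by sorted population, with the replicate number as symbol and the group mean as line. The tdTneg CD49f+CD34+ libraries sit between 0.765 and 1.19, the tdT+CD49f+CD34+SCA-1+ libraries between 26.9 and 39.7, and the other groups share the range around 12.2 to 13.7.

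By group, the mean level was 0.920 ± 0.234 (SD, n = 3) in tdTneg CD49f+CD34+, 10.6 ± 3.53 (SD, n = 3) in tdT+CD49f+CD34+, 14.5 ± 3.31 (SD, n = 2) in tdTneg CD49f+CD34+SCA-1+ and 34.2 ± 6.59 (SD, n = 3) normalized CPM in tdT+CD49f+CD34+SCA-1+ cells. Without the library labelled replicate 2, the tdT+CD49f+CD34+ mean was 10.3 ± 4.92 (SD, n = 2). In this order only the middle neighbours overlapped: tdT+CD49f+CD34+ replicate 1, at 13.7, lay above tdTneg CD49f+CD34+SCA-1+ replicate 1, at 12.2. Per kilobase of exon, *Akna* was at 0.133 to 0.206 normalized CPM per kilobase in tdTneg CD49f+CD34+ cells, which placed its level between the percentiles 15.5 and 20.5 of the 20307 genes tested. The level stood between the percentiles 42.4 and 46.4 in tdT+CD49f+CD34+, 47.6 and 52.3 in tdTneg CD49f+CD34+SCA-1+ and 61.6 and 69.2 in tdT+CD49f+CD34+SCA-1+ cells. *Akna* therefore ranked as a gene of low level in one population and of middle level in the others.

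The tdT difference within CD49f+CD34+ cells is the one on which the gene was picked. Its log2 fold change in the fit was 3.52 (SE 0.34), or 11.5-fold. Between libraries of the same replicate number, and so from the same pool of mice, libraries labelled tdT+ had 18.0, 9.50 and 8.42 times the level of tdTneg libraries in replicates 1, 2 and 3. The libraries did not overlap, as was the case in this direction for 5.07% of genes. A call required an absolute log2 fold change above 1 and an adjusted p-value (Benjamini-Hochberg) below 0.05, and 0.00985% of the genes tested, or 2 genes, were called in this comparison. Since these values picked the gene, nothing is read from either share for *Akna*. The library labelled tdT+ CD49f+CD34+ replicate 2 had its reporter row at the tdTneg level, yet its *Akna* level, 11.3 normalized CPM, lay between those of the other tdT+CD49f+CD34+ libraries. Without it the log2 fold change was 3.48 (SE 0.38). Without the 3 libraries with high *Fn1* it was 3.11 (SE 0.36), and among the libraries of each group these 3 held the positive deviations of *Akna* from the group mean, 0.43, 0.15 and 0.37 on the log2 scale, against -0.58, -0.22 and -0.15 in the others.

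The tdT difference of *Akna* among CD49f+CD34+SCA-1+ cells did not pass the call in edgeR. These libraries are not part of the comparison that picked the gene, but in the fit of all 11 libraries both comparisons share 1 estimate of the spread. The log2 fold change was 1.24 (SE 0.36, 95% confidence interval 0.44 to 2.04), or 2.36-fold with an interval from 1.36 to 4.11, and all 3 tdT+ libraries lay above both tdTneg libraries. Separation of this kind in the same direction was found for 15.8% of all genes tested. With edgeR's quasi-likelihood test the p-value was 0.00611 and the adjusted p-value 0.124, in a comparison in which 2.31% of genes were called. Fitted on the 5 CD49f+CD34+SCA-1+ libraries alone, it was 1.21 (SE 0.28) with an adjusted p-value of 0.0515 in edgeR, which was not called either. An exact two-sided permutation test on the log2 level gave p = 0.1, which is the smallest value that 3 against 2 libraries allow. In DESeq2 the log2 fold change was 1.21 with an adjusted p-value of 0.0176, and in limma voom with a weight per library it was 1.17 with an adjusted p-value of 0.0150, so both of these tools called the gene. When the 3 CD49f+CD34+ libraries with high *Fn1* were left out, which share the estimate of spread but are not part of the comparison, edgeR called it as well, at 1.18 (SE 0.27, adjusted p = 0.0286), with 1149 genes called in place of 470. The same-pool ratios were 2.22 and 2.14 in replicates 1 and 2.

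The values between the populations contain the 6 CD49f+CD34+ libraries that picked the gene and are given for *Akna* without a test. As the mean over tdT status, *Akna* was higher in CD49f+CD34+SCA-1+ than in CD49f+CD34+ cells by 2.83 on the log2 scale (SE 0.24), or 7.12-fold. The median log2 fold change of all genes was -0.09. Over the 5 CD49f+CD34+SCA-1+ libraries *Akna* was between 12.2 and 39.7 normalized CPM and over the 6 CD49f+CD34+ libraries between 0.765 and 13.7, so the ranges overlapped. With the library labelled tdT+ CD49f+CD34+ replicate 2 left out, it was 2.85 on the log2 scale. Without the 3 libraries with high *Fn1* it was 3.28 (SE 0.27).

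This mean holds unequal parts. Within tdTneg cells the population difference was 3.97 on the log2 scale (SE 0.37) and within tdT+ cells it was 1.69 (SE 0.32), or 4.24 and 2.32 without the 3 libraries with high *Fn1*. From the same pools, tdTneg CD49f+CD34+SCA-1+ cells had 15.9 and 14.2 times the level of tdTneg CD49f+CD34+ cells, while among libraries labelled tdT+ the ratios were 1.96, 3.19 and 5.86 in replicates 1, 2 and 3. The ratio of 3.19 rests on the library with its reporter row at the tdTneg level. The tdT difference was thus smaller in CD49f+CD34+SCA-1+ cells by 2.28 on the log2 scale (-2.28, SE 0.47). On omission of that library the difference within tdT+ cells was 1.74 and the value between the populations -2.24.

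The level of *Akna* in a library was close to the level of its leukocyte genes. The leukocyte list held 12 genes used across the hematopoietic lineage, such as *Ptprc* (CD45), *Coro1a*, which binds actin in leukocytes, and *Ikzf1*, a transcription factor of lymphoid development. Summed, they were at 23.0 to 81.0 normalized CPM in tdTneg CD49f+CD34+, 99.8 to 288 in tdT+CD49f+CD34+, 312 to 496 in tdTneg CD49f+CD34+SCA-1+ and 557 to 1011 in tdT+CD49f+CD34+SCA-1+ cells, so that the groups stood in the same order as for *Akna*. The score of the list, the mean log2 normalized CPM of its genes, had Pearson's r = 0.95 and Spearman's rho = 0.95 to *Akna* over the 11 libraries, and r = 0.89 without the 2 libraries with the most distant scores. The score of the 12 keratinocyte genes had r = 0.18 and rho = 0.36. These correlations are descriptions without a p-value, since the libraries share pools of mice and groups and the gene was picked on 6 of them.

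**Figure D2:**
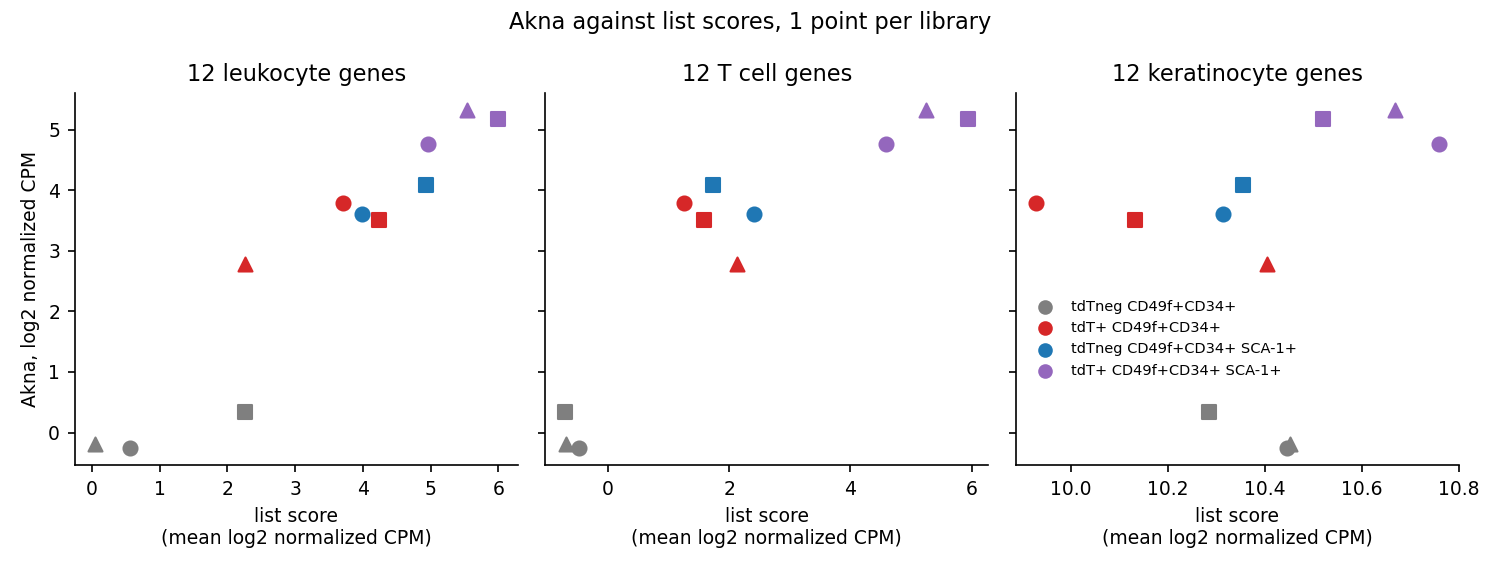
*Akna* (log2 normalized CPM) against the scores of 12 leukocyte, 12 T cell and 12 keratinocyte genes (mean log2 normalized CPM), with 1 point per library, colour for the population and the symbols circle, square and triangle for replicates 1, 2 and 3. The libraries follow a line for the leukocyte score (r = 0.95) and a looser one for the T cell score (r = 0.90), and for the keratinocyte score r is 0.18.

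Gene by gene, 11 of 12 leukocyte genes had an r over 0.8 to *Akna*, as did 2.86% of all genes tested, and the median r was 0.94 in the list and -0.08 over all genes. When the library labelled tdT+ CD49f+CD34+ replicate 2 was left out, this count was again 11. Without the 3 libraries with high *Fn1* it was also 11, next to 5.77% of all genes, and the leukocyte score had r = 0.98 over the 8 libraries left. The highest was *Ikzf1* at 0.96, followed by *Coro1a* at 0.96, and the exception was *Tyrobp*, a signalling adaptor of myeloid and NK cells, at 0.56. Of the 12 keratinocyte genes 0 had an r over 0.8, and they ranged from -0.70 for *Lamb3*, a laminin chain of the basement membrane, to 0.70 for *Perp*, a desmosomal protein. The keratin genes *Krt5* and *Krt14* of basal cells had r = 0.16 and r = 0.60.

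Cell type by cell type, 8 of 12 T cell genes had an r over 0.8, and the T cell score had r = 0.90 to *Akna*. *Cd3e*, a subunit of the T cell receptor complex, had r = 0.94, whereas *Cd4* had r = 0.45 and *Cd8a* r = 0.66. Of the genes of Langerhans and myeloid cells, 2 of 10 passed the same mark, the MHC class II genes *H2-Aa* (r = 0.88) and *H2-Ab1* (r = 0.83). These counts moved when the 3 libraries with high *Fn1* were left out, to 10 of 12 T cell and 6 of 10 Langerhans and myeloid genes, the latter with a median r of 0.81, next to the 5.77% of all genes. B cell genes were close to the detection limit, with 4 of 6 passing the filter on low counts and a summed level of 0.0633 to 4.65 normalized CPM. The B cell score had r = 0.28 to *Akna*. The genes of the interfollicular epidermis (IFE) moved with *Akna* as well, since 6 of 10 had an r over 0.8, led by the differentiation factors *Grhl3* (r = 0.92) and *Zfp750* (r = 0.91). The IFE score had r = 0.82. Bulge genes went the other way, and all 10 had a negative r, from -0.85 to -0.65, as did 56.5% of all genes. Melanocyte genes were also negative in 6 of 6, while the endothelial and fibroblast scores had r = 0.18 and r = -0.03.

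**Figure D3:**
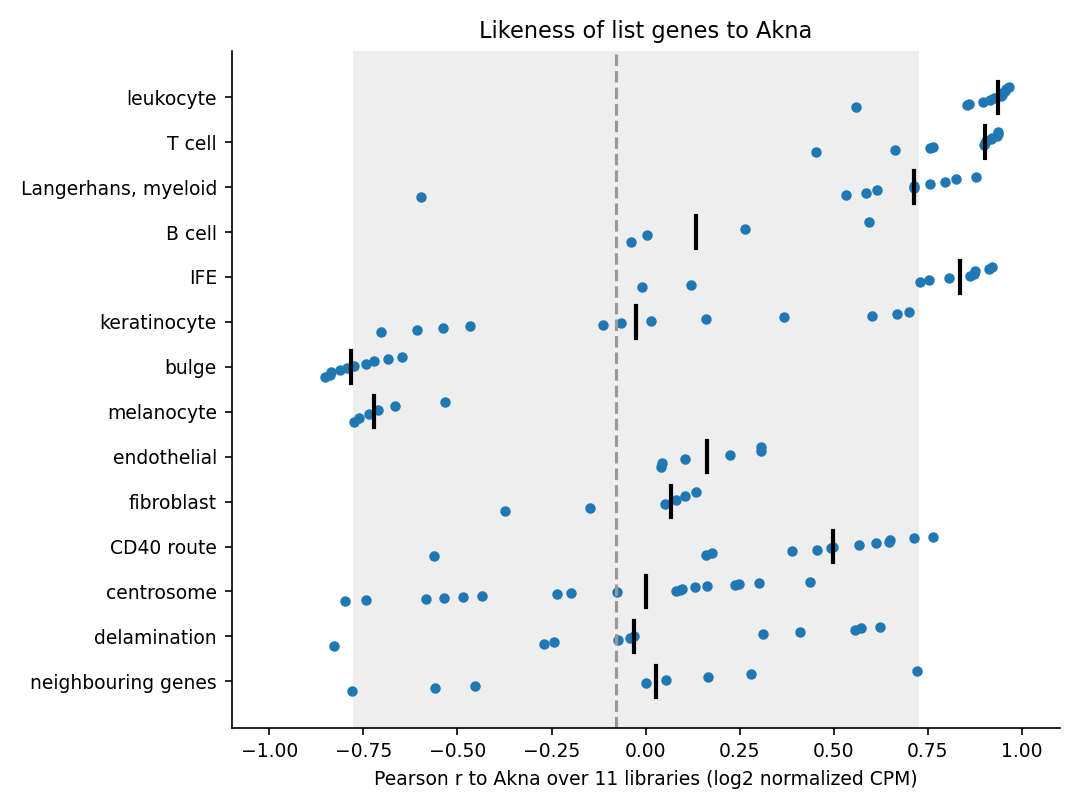
Pearson's r to *Akna* over the 11 libraries (log2 normalized CPM) for each list gene that passed the filter on low counts, with the list median as black bar, the median of all genes as dashed line and the 5th to 95th percentile of all genes as grey band (-0.77 to 0.72). Leukocyte genes lie at the right, beyond the band in 11 of 12 cases, and bulge genes at the left.

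After subtraction of the 4 group means, the leukocyte score had r = 0.85 to *Akna*. All 12 leukocyte genes had a positive r in these deviations, with a median of 0.74, as did 50.9% of all genes. Other lists had a positive r too, with r = 0.90 for the B cell, 0.79 for the Langerhans and myeloid, 0.66 for the endothelial and 0.63 for the fibroblast score, whereas the T cell score had r = -0.30 and the keratinocyte score r = -0.83. Without the 3 libraries with high *Fn1*, 7 libraries remain in groups of at least 2. Over these, r was 0.77 for the leukocyte, 0.95 for the B cell and 0.64 for the Langerhans and myeloid score. It was 0.72 for the endothelial, 0.37 for the fibroblast, 0.20 for the T cell and -0.36 for the keratinocyte score. The T cell score thus changed sign. So did the bulge score, from -0.28 to 0.77, the melanocyte score, from 0.22 to -0.28, and the CD40 list described further on. Few free values remain once group means are taken from 7 libraries, and in a group of 2 the deviations mirror each other. The B cell score rests on 4 genes close to the detection limit. With the library labelled tdT+ CD49f+CD34+ replicate 2 left out, the deviations had r = 0.87 for the leukocyte, 0.90 for the B cell, 0.89 for the Langerhans and myeloid, 0.91 for the endothelial, 0.66 for the fibroblast, -0.29 for the T cell and -0.83 for the keratinocyte score. In the libraries labelled tdT+CD49f+CD34+, where replicates 1, 2 and 3 had 13.7, 11.3 and 6.78 normalized CPM of *Akna*, the T cell scores were, in the same order, 1.26, 1.59 and 2.12 and the leukocyte scores 3.71, 4.23 and 2.27. The tdTneg CD49f+CD34+ library with the highest *Akna* level of its group, replicate 2 at 1.19 normalized CPM, also had the highest leukocyte sum of that group, 81.0 against 29.1 and 23.0 normalized CPM. Its T cell sum, 26.4 normalized CPM, was the lowest of the 3, next to 29.9 and 27.6. Most of these sums came from *Thy1*, at 18.0 normalized CPM in replicate 2 and at 23.8 and 21.8 in replicates 1 and 3. The order of the sums is thus that of 1 gene, and nothing is read from it.

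Set against the leukocyte genes of the same library, *Akna* varied much less. Per 100 normalized CPM of the leukocyte list there were 2.62, 1.47 and 3.51 normalized CPM of *Akna* in tdTneg CD49f+CD34+ cells. The ratio was 6.52, 3.92 and 6.79 in tdT+CD49f+CD34+, 3.90 and 3.40 in tdTneg CD49f+CD34+SCA-1+ and 4.84, 3.57 and 5.04 in tdT+CD49f+CD34+SCA-1+ cells. Over all 11 libraries the highest and lowest ratio differed by 4.62-fold, against 52.0-fold for *Akna* itself and 44.1-fold for the leukocyte sum. The ratio to the T cell list spanned 13.0-fold and the ratio to the keratinocyte list 40.7-fold. The 3 tdT+CD49f+CD34+ libraries lay above the 3 tdTneg CD49f+CD34+ libraries in the ratio to leukocyte genes too, with 3.92 as the lowest and 3.51 as the highest. In CD49f+CD34+SCA-1+ cells the tdT+ and tdTneg libraries overlapped in it. The part of leukocytes in the *Akna* differences was not tested.

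**Figure D4:**
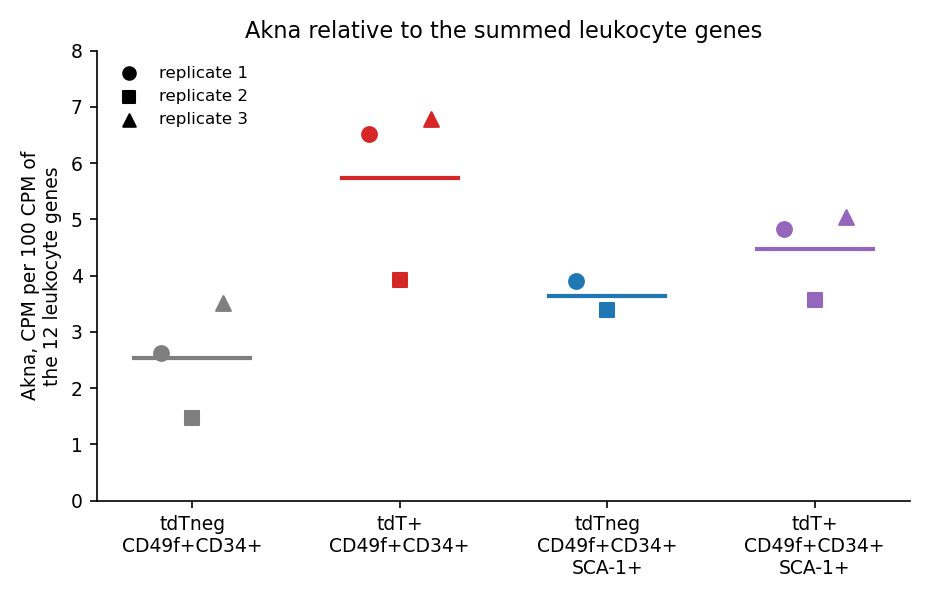
*Akna* in normalized CPM per 100 normalized CPM of the 12 summed leukocyte genes, by library and population, with the group mean as line and the replicate number as symbol. The ratio runs from 1.47 to 3.51 in tdTneg CD49f+CD34+ cells and from 3.40 to 6.79 in the 8 other libraries.

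The genes most like *Akna* among all genes tested were picked by r over the 11 libraries. The 10 highest were *Arhgap45*, *Cytip*, *Selplg*, *Tnfrsf13b*, *AI504432*, *Evi2a*, *Il2rg*, *Rhoh*, *Ikzf1* and *Meis3*, with r from 0.98 to 0.96, and 161 genes in all reached 0.9. *Ikzf1* was the 1 gene of these 10 that was also in a marker list. *Arhgap45*, a GTPase-activating protein of hematopoietic cells, was at 1.93 ± 1.32 in tdTneg CD49f+CD34+ and at 63.1 ± 9.77 normalized CPM in tdT+CD49f+CD34+SCA-1+ cells (SD, n = 3 each), with 16.1 ± 4.71 (SD, n = 3) in tdT+CD49f+CD34+ and 24.1 ± 11.6 (SD, n = 2) in tdTneg CD49f+CD34+SCA-1+ cells. *Selplg*, the leukocyte ligand of P-selectin, had means of 0.777, 15.9, 16.4 and 41.0 normalized CPM in the same 4 groups, from the lowest to the highest group of *Akna*. *Il2rg*, the gamma chain shared by several interleukin receptors, had 1.04, 7.51, 25.7 and 35.8 normalized CPM in that order. In the deviations from the group means these 10 genes had an r of 0.51 to 0.95. These deviations are part of the values that picked the genes, so they are no separate support.

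At the other end stood *Pappa*, *Oxtr*, *Cep131*, *Ccdc92* and *D3Ertd254e*, with r from -0.95 to -0.94. *Pappa*, a protease of IGF-binding proteins, was at 78.5 ± 15.8 normalized CPM in tdTneg CD49f+CD34+, where *Akna* was lowest, and at 11.5 ± 2.61 in tdT+CD49f+CD34+SCA-1+ cells (SD, n = 3 each). The oxytocin receptor gene *Oxtr* was at 24.05 ± 3.51 and 3.53 ± 1.03 normalized CPM in the same groups. For deviations from the group means alone, the 5 most alike were *Mmp19*, *Wdr72*, *Vnn1*, *Ccdc88b* and *Msra*, with r from 0.98 to 0.97. They are the extremes of all genes tested over few libraries, so nothing is read from these values. *Wdr72* had 173 counts over all libraries. *Vnn1* was at a mean of 0.0877 in tdT+ and 0.314 normalized CPM in tdTneg CD49f+CD34+SCA-1+ cells.

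Between the populations 11.6% of all genes were called. In this comparison 10 of 12 leukocyte genes and 11 of 12 T cell genes were called higher in CD49f+CD34+SCA-1+ cells, next to 4.77% of all genes in that direction, with median log2 fold changes of 2.45 and 3.42. *Ikzf1* rose by 3.26 (adjusted p = 0.000197) and *Cd3e* by 4.04 (adjusted p = 0.000137) in edgeR. Of the Langerhans and myeloid genes 5 of 10, and of the IFE genes 7 of 10, were called higher, and all 10 bulge genes were called lower, next to 6.79% of all genes. *Krt14* alone among the 12 keratinocyte genes was called higher, by 1.28 on the log2 scale (adjusted p = 0.00156 in edgeR). On omission of the library labelled tdT+ CD49f+CD34+ replicate 2, these 6 counts were the same, while endothelial genes called higher went from 0 to 3 of 6. Without the 3 libraries with high *Fn1* the leukocyte count was 12, that of Langerhans and myeloid genes 9, and the other 4 were the same. In that fit 2927 of 21477 genes were called in place of 2347 of 20307, with 8.74% of all genes higher and 4.88% lower, so the balance over all genes turned from mostly lower to mostly higher. The endothelial genes, of which 0 of 6 were called in edgeR or DESeq2 with all libraries (2 higher at a p-value under 0.05 without adjustment), were then called higher in 6 of 6, and among the delamination genes described further on the count went from 1 to 4 higher. *Akna*, at 2.83, lay between the medians of the leukocyte and the T cell list.

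Between tdT+ and tdTneg CD49f+CD34+SCA-1+ cells, 6 of 12 T cell genes and 1 of 12 leukocyte genes, *Ikzf1*, were called higher, next to 0.251% of all genes. As median log2 fold changes, the T cell list had 3.02 and the leukocyte list 0.96, and the value of *Akna*, 1.24, was nearer to that of the leukocyte list. Without the 3 libraries with high *Fn1*, 11 T cell and 3 leukocyte genes were called higher, next to 0.661% of all genes in that fit. *Ikzf1* rose by 2.17 (adjusted p = 0.0380 in edgeR). The keratinocyte median was 0.33 and the median of all genes 0.04. These libraries also differed in endothelial genes, which summed to 29.2 to 57.7 normalized CPM in tdT+ and 1608 to 1653 in tdTneg CD49f+CD34+SCA-1+ cells. Of the 6 endothelial genes 2 were called lower in tdT+ cells, or 5 on omission of the CD49f+CD34+ library with its reporter row at the tdTneg level and 6 without the 3 libraries with high *Fn1*. Bulge genes moved too, with 5 of 10 called lower, next to 2.06% of all genes, a median log2 fold change of -2.29 and 8 called lower without the 3 libraries with high *Fn1*, where 4.69% of all genes were. The bulge list summed to 4431 to 5782 normalized CPM in tdT+ and 5526 to 7381 in tdTneg libraries. Langerhans and myeloid genes had a median of -1.20 and fibroblast genes one of -1.32. The part of endothelial and bulge RNA in the tdT difference of *Akna* was not tested. In CD49f+CD34+ cells, where *Akna* was picked, all 12 leukocyte and all 12 T cell genes had a positive log2 fold change for tdT, with medians of 2.55 and 3.02, against 9609 of 20307 genes and a median of -0.03. The log2 fold change was also positive in 10 of 10 Langerhans and myeloid genes (median 1.87), 6 of 6 endothelial genes (median 1.92) and 9 of 10 IFE genes (median 1.34). In the 3 CD49f+CD34+ libraries without high *Fn1*, tdT+ replicate 3 and tdTneg replicates 1 and 3 had endothelial scores of -0.49, 2.05 and 2.37, the reverse direction. In that order the scores were 1.71, 1.71 and 0.69 for Langerhans and myeloid and 6.10, 6.30 and 4.75 for IFE genes. They were 2.27, 0.56 and 0.04 for leukocyte and 2.12, -0.48 and -0.69 for T cell genes. The keratinocyte median was -0.27.

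*Akna* is known as a regulator of the CD40 route, and these genes were looked at with it. *Cd40lg*, the ligand on activated T cells, had 88, 122 and 139 counts in the tdT+CD49f+CD34+SCA-1+ libraries and at most 9 in every other one. *Cd40*, its receptor on antigen-presenting cells, had between 0 and 104 counts per library. Of the 13 genes of this list 2 were called higher in CD49f+CD34+SCA-1+ cells, *Cd40lg* and *Traf1*, next to 4.77% of all genes. *Cd40lg* passed the filter on low counts through the tdT+CD49f+CD34+SCA-1+ libraries alone and had 9 and 0 counts in the tdTneg CD49f+CD34+SCA-1+ libraries, so nothing is read from its call. *Traf1*, an adaptor of TNF receptors, rose by 1.60 (adjusted p = 0.0103 in edgeR). There were 3 such genes without the 3 libraries with high *Fn1*. The score of the list, which includes *Cd40lg*, had r = 0.72 to *Akna* over the 11 libraries. Gene by gene the median r was 0.50, and 0 of 13 genes had an r over 0.8. In the deviations from the group means the score had r = 0.16, or -0.32 over 7 libraries without the 3 with high *Fn1*. *Mmp9*, a matrix protease that AKNA is reported to repress, had r = 0.39.

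Over the 11 libraries the r of the centrosome genes to *Akna* had a median of 0.0018 and was positive in 9 of 18 genes, while their score had r = -0.57. In the deviations from the group means the median was -0.43 with 3 of 18 genes positive, against 50.9% of all genes, and the score had r = -0.46. Of the 18 centrosome and microtubule genes, 0 were called between the populations by edgeR or DESeq2, with 2 lower when a p-value under 0.05 was taken without adjustment, which 34.4% of all genes passed in either direction. In edgeR 1 of them was called lower without the 3 libraries with high *Fn1*. *Cep170*, a protein of the subdistal appendages, fell by 1.66 in tdT+ against tdTneg CD49f+CD34+SCA-1+ cells (adjusted p = 0.0156 in edgeR), in a comparison with 2.06% of genes called lower. Among 12 genes of delamination and epithelial-mesenchymal transition, 11 passed the filter. *Vim*, the intermediate filament of mesenchymal cells and leukocytes, rose by 2.54 between the populations (adjusted p = 0.0121 in edgeR), and by 3.82 without the 3 libraries with high *Fn1*. *Cdh2*, N-cadherin, was called lower (-6.86, adjusted p = 0.0198 in edgeR), but this rested on those 3 libraries, at 15.04 to 55.5 normalized CPM against 0.195 to 0.606 in the other CD49f+CD34+ and 0 to 0.168 in the CD49f+CD34+SCA-1+ libraries, and without them it was not called (-2.09, adjusted p = 0.257). The score of this list had r = 0.12 over the 11 libraries and r = 0.88 in the deviations from the group means, or 0.74 without the 3 libraries. Gene by gene these deviations had a median r of 0.14, from -0.73 to 0.92, with 7 of 11 genes positive, so the score did not stand for most of its genes.

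The genes next to *Akna* on chromosome 4 ranged from unlike to fairly like it. Of the 10 nearest, 5 on each side, 8 passed the filter on low counts and their r to *Akna* ran from -0.78 to 0.72. *Whrn*, the next protein-coding gene upstream of *Akna*, fell by 1.17 between the populations (adjusted p = 0.0170 in edgeR) with r = -0.78. *Orm2*, an acute phase protein gene on the other side, was called lower (-7.77, adjusted p = 0.0386 in edgeR), and its r was 0.0023. This call rested on the 3 libraries with high *Fn1*, where *Orm2* was at 160 to 389 normalized CPM against 0.0827 to 2.48 in the other CD49f+CD34+ libraries, and without them the value was -0.03 and not called. The orosomucoid genes *Orm1*, *Orm2* and *Orm3* are close copies, so reads may be divided among them. *Col27a1*, a fibrillar collagen, had the highest r of these genes, 0.72.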

How the data were processed

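Epidermal cells were sorted by FACS into 4 populations, and RNA of 11 libraries was sequenced. The deposited values are counts per gene, which the authors made with STAR and featureCounts on mm10 with the Ensembl release 96 annotation (bcl2fastq 2.20.0.422 and FastQC before that), without normalization. The labels gave group and replicate number. The 1 row that is no Ensembl gene, at most 0.0307% of a library, was kept out of totals and tests.

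Counts were fitted in R 4.3.3 with edgeR 4.0.16 (TMM, filterByExpr on 4 groups, 20307 of 55536 genes, quasi-likelihood F-test, all 11 libraries with 1 mean per group) and adjusted over all genes by Benjamini-Hochberg. For *Akna* between the populations no test is given, since the comparison holds the libraries that picked the gene. Thresholds were an adjusted p-value of 0.05 and an absolute log2 fold change of 1. DESeq2 1.42.0, the tool of the study, and limma 3.58.1 voom were alternatives, as were other filters on low counts, RLE size factors, the replicate block, only the groups compared, no fold threshold and omission of each library. Scaling by total counts, each population alone for the correlations the list counts on omission of the library that stood apart and all results without the 3 CD49f+CD34+ libraries with high *Fn1* were added after seeing the data, as were the deviations without the library that stood apart. On simulated data with 200 genes changed by a log2 fold of 3, edgeR recovered 64% between the populations and 56% for tdT in CD49f+CD34+SCA-1+ cells. Correlations used log2 normalized CPM with a prior count of 2. Motifs and figures used Python 3.11.15, numpy 2.4.6, pandas 2.3.3 and matplotlib 3.10.9.

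*Akna* and the 14 lists (142 genes, all matched by symbol) were chosen with earlier results of these data known, and 1 list is not reported here. Other named genes are the 5 nearest on each side, the 10 with the highest and 5 with the lowest r to *Akna* and the 5 with the highest r of deviations from the group means. Per the study, libraries of one replicate number came from the same pool of mice. The deviations of same-numbered libraries had a median correlation of 0.08 over 15 pairs (-0.42 to 0.59), against -0.02 over 30 other pairs. No 2 libraries were identical. RefSeq (GRCm38.p6) gave 2 start regions for *Akna*, and the one printed is upstream of the Ensembl gene. Reads and strand were not analysed here.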

Additional observations from a re-analysis of the deposited data

Results flagged for a closer look

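Among the genes looked at beside *Akna*, the tdT difference of *Tcf7l1*, a transcription factor of bulge stem cells, was different in the 2 populations, by -2.94 on the log2 scale (adjusted p = 0.00988 in edgeR for the difference itself). It was -3.54 in CD49f+CD34+SCA-1+ cells, with 3.28 ± 0.236 (SD, n = 3) in tdT+ and 38.2 ± 9.41 normalized CPM (SD, n = 2) in tdTneg libraries, and -0.60 in CD49f+CD34+ cells. A difference of this kind was called for 0.389% of all genes tested. The bulge list as a whole moved likewise, with median log2 fold changes for tdT of -2.29 in CD49f+CD34+SCA-1+ and -0.52 in CD49f+CD34+ cells. The row outside the Ensembl genes, which enters no comparison here, reached 307 CPM in the highest tdT+ library, against at most 4.89 CPM in the tdTneg libraries. It was at 2.05 CPM in the library labelled tdT+ CD49f+CD34+ replicate 2 (37 counts, 95% Wilson interval 1.49 to 2.83 CPM, counting error only).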

How the results depend on the processing

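The population difference of *Akna*, given without a test, was 2.79 to 3.28 on the log2 scale under 8 alternatives and 2.71 to 2.95 without any 1 library. The tdT difference in CD49f+CD34+SCA-1+ cells was 1.17 to 1.34 under 9 alternatives. DESeq2 (1.21, adjusted p = 0.0176), voom (1.17, 0.0150) and edgeR without the 3 libraries with high *Fn1* called it, and the other 6 did not. With the replicate block it was 1.34 (adjusted p = 0.142), and omission of 1 library gave 1.02 to 1.45 (0.0567 to 0.524). The block did not change that *Akna* was not called. Among list genes, *Tek* lost its tdT call with it, *Cd207*, *Nfatc1* and *Tyrp1* lost and *Rac2*, *Lyz2* and *Mmp9* gained the population call. The tdT difference in CD49f+CD34+ cells, without a test, was 3.11 to 3.79 under the alternatives and 3.29 to 3.76 without 1 library.

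Genes called for tdT in CD49f+CD34+SCA-1+ cells numbered 470, against 1209 in DESeq2, 976 in voom, 885 with at least 1 count in any library, 885 with only the groups compared and 97 to 700 without 1 library (among tdT+CD49f+CD34+SCA-1+ libraries 267 on omission of replicate 1 and 268 of replicate 3, among tdTneg ones 240 of replicate 1 and 97 of replicate 2). Between the populations they numbered 2347, against 3522 in DESeq2, 3917 without a fold threshold and 1160 to 2510 without 1 library, with 1160 and 1483 on omission of tdTneg CD49f+CD34+SCA-1+ replicate 1 or 2. For tdT in CD49f+CD34+ cells edgeR called 2 genes (1709 at an unadjusted p-value under 0.05) and DESeq2 373, against 138 in voom, 166 with at least 1 count in any library, 20 with at least 10 in every library, 5 with RLE size factors, 4 with the block, 1 with total counts, 0 with only the groups compared and 34 without the 3 libraries with high *Fn1*. Omission of 1 library gave 0 to 7, with 0 on omission of the library labelled tdT+ CD49f+CD34+ replicate 2, of tdTneg CD49f+CD34+ replicate 3, of tdT+CD49f+CD34+SCA-1+ replicate 3 or of either tdTneg CD49f+CD34+SCA-1+ library. The cause was not tested.

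Without the 3 CD49f+CD34+ libraries with high *Fn1*, chosen after seeing the data, the tdT difference of *Akna* was 3.11 in CD49f+CD34+ cells. Among CD49f+CD34+SCA-1+ cells it was 1.18, and edgeR then called it (adjusted p = 0.0286) among 1149 genes. The population difference was 3.28 as the mean and 2.32 within tdT+ cells, and r to the leukocyte score was 0.98.

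In deviations from the group means r to *Akna* was 0.85 for the leukocyte score, -0.30 for the T cell score and -0.83 for the keratinocyte score. In the 5 CD49f+CD34+SCA-1+ libraries the keratinocyte score had r = 0.77, and in the 6 CD49f+CD34+ libraries it had r = -0.77 and the leukocyte score r = 0.89. Without 1 library r was 0.94 to 0.98 for leukocyte, 0.88 to 0.93 for T cell and 0.04 to 0.36 for keratinocyte genes. The lowest counts of *Akna*, 33 to 45, were in the tdTneg CD49f+CD34+ libraries, which were the deepest with 39364902 to 46542177 reads. With 2 tdTneg CD49f+CD34+SCA-1+ libraries, omission of 1 assumes that the other varied like the remaining groups.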
